A study of Mus musculus with 2 samples.

Results

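The megakaryocyte and platelet genes were followed in whole fetal liver, as a set of 32 listed genes that encode platelet glycoproteins, granule proteins, signalling proteins and megakaryocyte regulators, with the integrins kept apart. The members were all probe sets that the platform annotation assigns to exactly 1 gene on that list. They came to 49 of the 45101 probe sets of the array and stood for 30 genes, out of 18193 genes that the array covers in this way. Gp1ba, which encodes the von Willebrand factor-binding chain of the platelet glycoprotein Ib complex, and Ptgs1, which encodes cyclooxygenase-1, had no such probe set, so no transcript level is given for them, and they enter only the counts of promoter windows.

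The first of the 2 samples was liver of Prox1 f/f;Foxa3Cre embryos, whose floxed Prox1 gene is recombined by Cre under Foxa3, and it is called the knockout below. The other was liver of the genotype wild-type. Both were taken at E14.5, in mid-gestation, and both carry the strain label NMRI/C57Bl6. Each genotype was measured on 1 single-colour Affymetrix array, so no value has a replicate, an SD or a test. The labels do not give the number of embryos behind a sample. Foxa3 is expressed in the endoderm that forms liver and gut, while the cells that make platelets belong to the blood lineage.

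Megakaryocytes are large polyploid cells that arise from blood stem and progenitor cells, and in the fetal mouse the liver is a main site where they form. They package chemokines, adhesive proteins and nucleotides into alpha and dense granules, and they shed platelets from long tubulin-rich extensions. Platelets stop bleeding by binding von Willebrand factor through the glycoprotein Ib-IX-V complex and collagen through glycoprotein VI. Thrombin, ADP and thromboxane receptors then spread the activation. Transcription of many of these genes is driven by the factor GATA1 with its cofactor FOG1, encoded by Zfpm1, and by factors of the ETS family such as FLI1.

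Because GATA and ETS sites are the textbook features of megakaryocyte promoters, the 250 bases before the annotated start of 7 members are shown: 3 subunits of the glycoprotein Ib-IX-V complex, the collagen receptor gene Gp6, whose lower bound lay nearest the 2-fold mark, the neighbouring chemokine genes Pf4 and Ppbp, and Cd9, the member that was lowest in the knockout relative to wild type. They are RefSeq sequences of the build GRCm38.p6, written 5′ to 3′ on the gene's own strand. Capitals mark matches, on either strand, to the GATA words AGATAA or AGATAG or TGATAA or TGATAG, or to the ETS words AGGAAG or CGGAAG. The windows are chr16:18622404-18622653, minus strand for Gp1bb; chr6:87777820-87778069, plus strand for Gp9; chr16:30310782-30311031, minus strand for Gp5; chr7:4397745-4397994, minus strand for Gp6. They are chr5:90772185-90772434, plus strand for Pf4; chr5:90768268-90768517, plus strand for Ppbp; chr6:125494761-125495010, minus strand for Cd9.
Gp1bb: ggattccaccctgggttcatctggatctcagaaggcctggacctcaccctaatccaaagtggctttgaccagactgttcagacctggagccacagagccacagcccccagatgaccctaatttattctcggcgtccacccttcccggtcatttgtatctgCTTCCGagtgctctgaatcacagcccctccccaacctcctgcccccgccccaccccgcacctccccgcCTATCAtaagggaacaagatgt
Gp9: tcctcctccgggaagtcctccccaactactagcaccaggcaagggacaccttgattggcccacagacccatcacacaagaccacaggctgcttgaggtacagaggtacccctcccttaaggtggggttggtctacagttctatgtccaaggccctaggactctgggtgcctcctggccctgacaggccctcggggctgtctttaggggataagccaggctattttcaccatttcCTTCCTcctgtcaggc
Gp5: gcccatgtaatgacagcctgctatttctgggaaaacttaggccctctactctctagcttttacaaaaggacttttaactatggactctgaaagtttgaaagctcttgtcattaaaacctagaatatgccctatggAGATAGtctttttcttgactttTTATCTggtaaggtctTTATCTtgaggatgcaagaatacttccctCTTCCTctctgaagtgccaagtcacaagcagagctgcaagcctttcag
Gp6: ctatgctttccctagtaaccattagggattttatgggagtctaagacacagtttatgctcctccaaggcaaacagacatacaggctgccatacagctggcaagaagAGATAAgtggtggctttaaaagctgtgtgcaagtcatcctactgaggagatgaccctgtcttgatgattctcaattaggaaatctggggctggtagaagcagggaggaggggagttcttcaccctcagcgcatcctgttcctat
Pf4: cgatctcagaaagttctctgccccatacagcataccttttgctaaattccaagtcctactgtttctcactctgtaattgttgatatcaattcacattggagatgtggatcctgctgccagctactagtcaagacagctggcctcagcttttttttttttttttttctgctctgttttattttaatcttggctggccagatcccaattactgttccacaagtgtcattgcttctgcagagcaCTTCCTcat
Ppbp: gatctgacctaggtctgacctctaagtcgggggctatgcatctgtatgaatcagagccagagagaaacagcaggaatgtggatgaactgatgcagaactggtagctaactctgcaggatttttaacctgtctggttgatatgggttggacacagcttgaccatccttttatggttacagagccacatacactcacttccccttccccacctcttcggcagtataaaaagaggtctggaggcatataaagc
Cd9: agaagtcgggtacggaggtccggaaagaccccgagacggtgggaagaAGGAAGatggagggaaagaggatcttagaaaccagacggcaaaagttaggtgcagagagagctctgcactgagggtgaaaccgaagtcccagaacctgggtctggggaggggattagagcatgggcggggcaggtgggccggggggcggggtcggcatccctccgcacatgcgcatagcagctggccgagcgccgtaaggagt

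Gp5 held 3 GATA matches, which began 115, 93 and 77 bases before the start, and an ETS match that began 48 bases before it. Gp1bb held a GATA match 22 bases and an ETS match 90 bases before the start. Gp6 held a GATA match at 144 bases, and Pf4 and Gp9 each held an ETS match close to the start, at 9 and 16 bases. Ppbp had none of these words in its window, and Cd9 had an ETS match at 203 bases. RefSeq windows were found for 29 of the 32 listed genes, Gp1ba and Ptgs1 among them, in 31 windows, since F13a1 and Rasgrp2 had more than 1. The remaining genes were Vwf, Thbs1 and Rab27b. A GATA word was present in 10 of the 31 windows (32.3%), against 26.5% of all 32851 windows. An ETS word was present in 18 (58.1%), against 39.2% of all windows, and both were present in 5 (16.1%), against 9.21%. No GATA match overlapped an ETS match in these 31 windows. These matches are letters found in a window and not sites of binding.

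Transcript levels are given as MAS5 signals, which condense the perfect-match and mismatch probes that make up a probe set into 1 linear value. A floor of 112.6 signal units, the higher of the arrays' medians, was set under the values before log2 was taken. A gene was called measured on an array where its probe set lay above the floor. Where a gene had several probe sets, the one with the highest mean log2 signal stood for it. Differences are knockout minus wild type. Signals of different probe sets are not compared with each other, since each has its own probe response.

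Most of the megakaryocyte and platelet genes read modestly higher in the knockout liver, and none was measured as 2-fold apart on both arrays. Of the 30 genes, 26 were above the floor on both arrays, Gp6 on the knockout array only, and Selp, F2rl3 and P2ry1 on neither. Among the 26, 22 had a log2 difference above 0, where 52.1% of all genes on both arrays did, and 4 were below 0. Their median was 0.32 (0.01 over all 10221 such genes), and their quartiles ran from 0.15 to 0.47 (-0.17 to 0.23 over all genes). The lowest was Cd9 at -0.49 and the highest Nbeal2 at 0.72. Without any floor or filter, with a pseudocount of 16 added to each signal, 26 of the 30 genes were above 0 and their median was 0.33. Of all 18193 genes treated so, 55.3% were above 0 and the median was 0.05.

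At the 2-fold mark, 0 of the 27 members measured on at least 1 array were higher in the knockout (3.27% of all measured genes) and 0 were lower (2.13% of all measured genes). Gp6 entered at its lower bound, which was just short of that mark. These counts are near what the background gives for a set of this size. At 1.5-fold, 4 of the 27 were higher (9.87% of all measured genes) and 0 were lower (5.21%). The 4 were Gp6, Nbeal2, Gp1bb and P2rx1. In bulk liver, more cells of a type and more RNA per cell cannot be told apart.

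**Figure D1:**
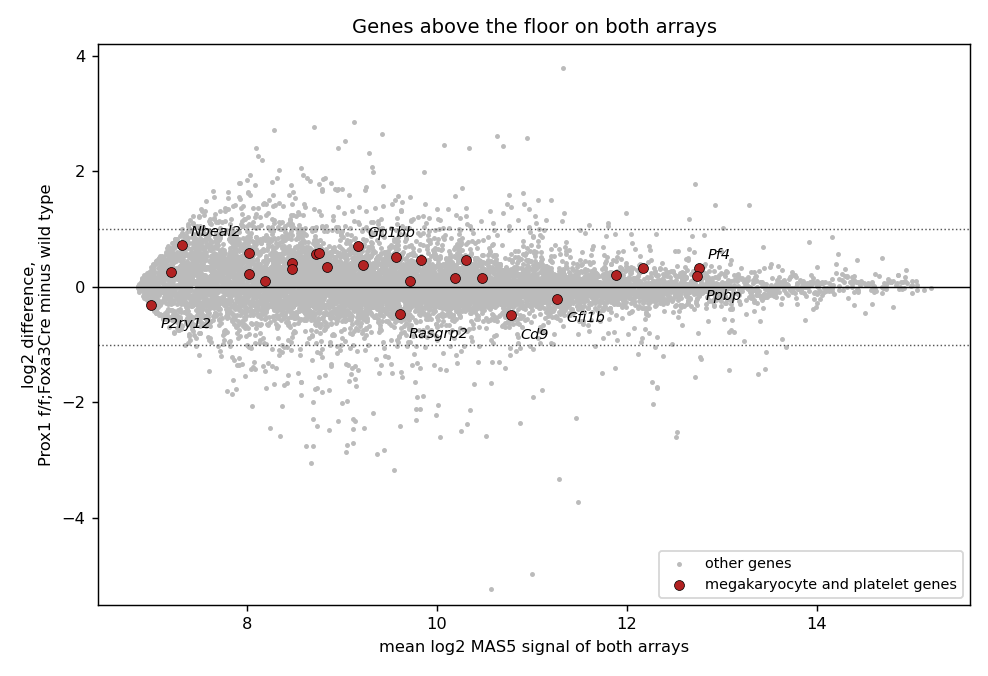
Log2 difference, knockout minus wild type, against the mean log2 signal of both arrays for the 10221 genes above the floor on both; red points are the 26 megakaryocyte and platelet genes and dotted lines mark 2-fold. Of the red points 22 lie above 0 and 4 below it, and all lie within the dotted lines.

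Dim genes as a whole read somewhat higher on the knockout array, so the members are also given by range of signal. In the range from 250 to 1000, 13 of 14 members were above 0, with a median of 0.39, against 0.04 for the 4388 genes of that range, 55% of which were above 0. Above 1000, 7 of 9 members were above 0, with a median of 0.18, against -0.02 for 4200 genes, 45.4% of which were above 0. Below 250 there were 3 members, of which Nbeal2 (0.72) and Slc35d3 (0.25) were above 0 and P2ry12 (-0.31) below it, where 61.2% of 1633 genes were above 0 and their median was 0.12. That tally is near its background. Single genes scattered between the arrays: the robust SD of the log2 difference was 0.34 among all genes between 250 and 1000 and 0.21 above 1000. A single member at 0.3 in the range from 250 to 1000 is therefore within the ordinary scatter between these arrays.

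**Figure D2:**
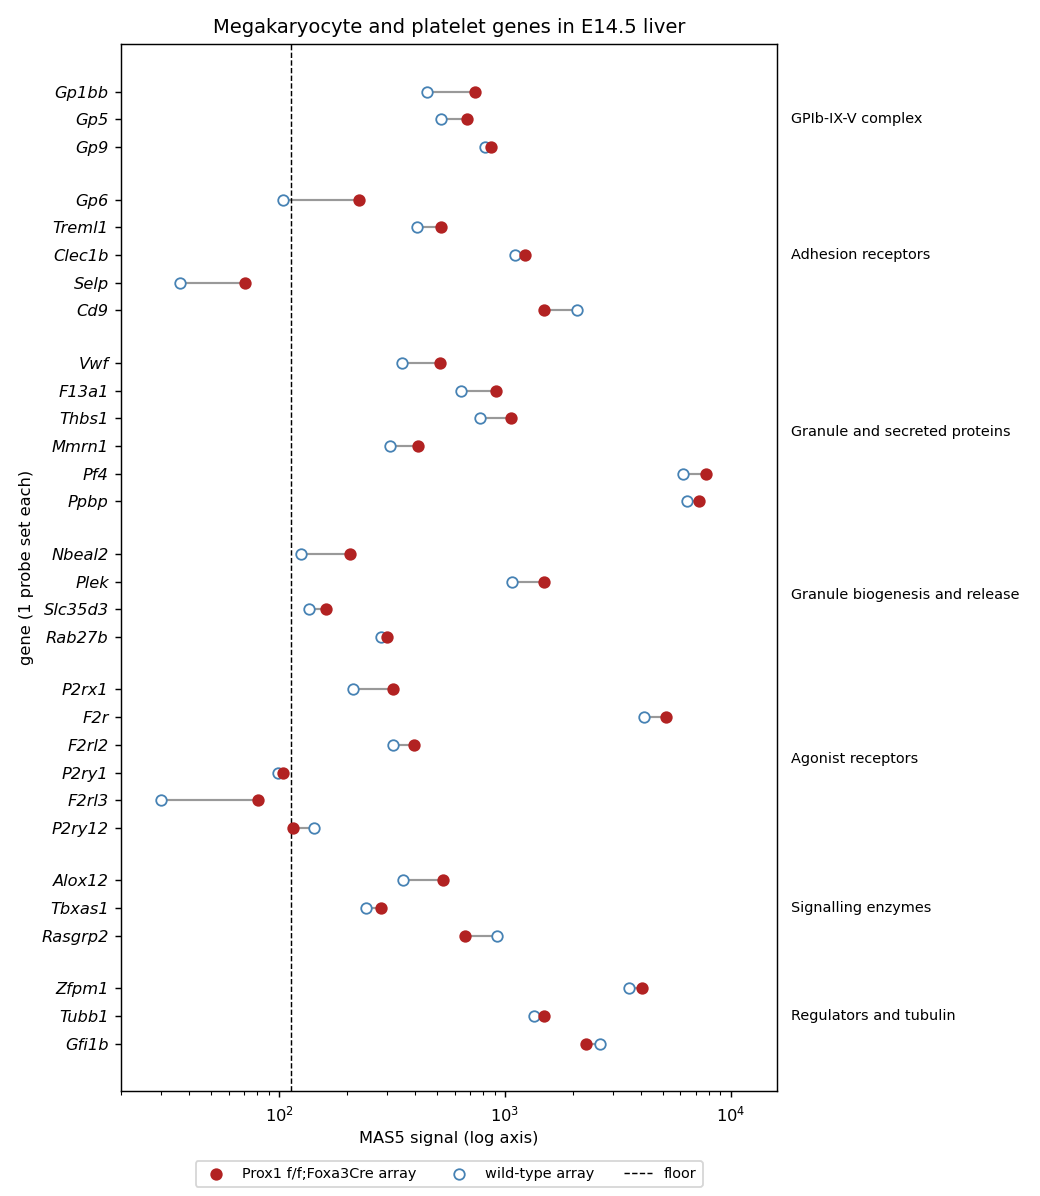
MAS5 signal (log axis) of the probe set that stands for each of the 30 genes, grouped by role; filled points are the knockout array, open points the wild-type array, and the dashed line is the floor of 112.6. The filled point lies to the right of the open one for all but Cd9, P2ry12, Rasgrp2 and Gfi1b.

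The measured subunits of the glycoprotein Ib-IX-V complex all read higher in the knockout, by unequal amounts. Gp1bb, the beta chain that is disulfide-linked to the alpha chain, read 739 in the knockout and 453 in wild type, a log2 difference of 0.71. Its other probe set read 128 in the knockout and 93.5, below the floor, in wild type, so it gives only a bound of 0.18. Gp5, the subunit that thrombin cleaves, read 681 in the knockout and 523 in wild type, a difference of 0.38. Gp9, which the complex needs to reach the surface, read 871 in the knockout and 813 in wild type, a difference of 0.10. The genes of this complex thus ran from nearly level (Gp9) to 1.63-fold higher in the knockout (Gp1bb). A probe set shared by Gp1bb and its neighbour Septin5 names neither gene and was used only as an alternative.

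The measured receptors for collagen, podoplanin and other ligands read higher in the knockout, and the tetraspanin gene Cd9 read lower. Gp6, the collagen receptor of platelets, read 225 in the knockout and 104, below the floor, in wild type. With wild type raised to the floor, this gives a lower bound of 1.999-fold, just short of the 2-fold mark. Without the floor its log2 difference was 1.12, past that mark. Gp6 has a single probe set and was counted as measured because of its knockout value. Treml1, a receptor stored in alpha granules, read 521 in the knockout and 409 in wild type, a log2 difference of 0.35. Clec1b, the podoplanin receptor CLEC-2, was closer to level at 1233 in the knockout and 1106 in wild type, a difference of 0.16. Cd9, a tetraspanin abundant on platelets and present on many other cells, went the opposite way, at 1488 in the knockout and 2092 in wild type, a difference of -0.49. Selp, which encodes P-selectin of platelet and endothelial granules, was below the floor on both arrays. Its 3 probe sets read 88.7, 70.8 and 1.64 in the knockout, against 10.9, 36.3 and 2.55 in wild type, and at these signals they give no difference.

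All 6 granule and secreted proteins read higher in the knockout. Pf4, the chemokine CXCL4, whose promoter is used to mark megakaryocytes in mice, read 7757 in the knockout and 6165 in wild type, a log2 difference of 0.33. Ppbp, the chemokine CXCL7 encoded next to Pf4, read 7257 in the knockout and 6406 in wild type, a difference of 0.18. Both chemokines stood well above the floor on both arrays, where differences scatter less than among dim genes. The robust SD of all genes above 1000 was 0.21. Ppbp at 0.18 was below that value and Pf4 at 0.33 above it, and neither was tested. Vwf, the adhesive multimer made by megakaryocytes and endothelium, read 516 in the knockout and 349 in wild type, a difference of 0.56. Thbs1, the matrix glycoprotein thrombospondin-1, read 1067 in the knockout and 776 in wild type on one probe set, a difference of 0.46. On the other Thbs1 probe set the values were 620.4 in the knockout and 509 in wild type, a difference of 0.28, so the probe sets had the same direction.

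F13a1, the A subunit of the clot-stabilizing factor XIII and also a macrophage product, read 914 in the knockout and 636 in wild type, a log2 difference of 0.52. Mmrn1, the factor V-binding protein multimerin-1, read 410.4 in the knockout and 309.6 in wild type, a difference of 0.41. A dim Mmrn1 probe set read 6.16 in the knockout and 34.7 in wild type, both below the floor. The 6 differences ran from 0.18 (Ppbp) to 0.56 (Vwf), with a median of 0.43.

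The genes that build and release granules were also all above 0 on the probe set that stood for them. Nbeal2, whose loss causes gray platelet syndrome with empty alpha granules, read 205 in the knockout and 124 in wild type, a log2 difference of 0.72. Its signals were close to the floor, and its other probe set was below it on both arrays, at 109 in the knockout and 70.3 in wild type. Plek, the protein kinase C substrate pleckstrin, which leukocytes also express, had 3 measured probe sets. They read 1495, 1188 and 469.6 in the knockout, against 1081, 823 and 391.6 in wild type. Their differences were 0.47, 0.53 and 0.26, so all probe sets of Plek were higher in the knockout.

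Slc35d3, a nucleotide sugar transporter relative needed for dense granules in mice, read 161 in the knockout and 136 in wild type, a log2 difference of 0.25. Rab27b, a small GTPase of granule secretion, had no common direction over its 4 probe sets. One read 302 in the knockout and 283 in wild type (0.09), and another 197 in the knockout and 148 in wild type (0.41). The others were lower in the knockout, at 229 against 270.3 in wild type (-0.24) and at 104, below the floor, against 124 in wild type (a bound of -0.14).

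Of the 6 receptors for soluble agonists, 3 read higher in the knockout, P2ry12 read lower, and P2ry1 and F2rl3 were below the floor on both arrays. P2rx1, the ATP-gated ion channel of platelets, read 318 in the knockout and 212 in wild type, a log2 difference of 0.59. Its other probe set read 139.6 in the knockout and 109, below the floor, in wild type, a bound of 0.31. P2ry12, the ADP receptor blocked by clopidogrel, was just above the floor at 115 in the knockout and 142 in wild type, a difference of -0.31. P2ry1, the other ADP receptor, was below the floor at 104 in the knockout and 99.1 in wild type.

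The thrombin receptors are members of the protease-activated family, and mouse platelets respond to thrombin through the receptors encoded by F2rl2 and F2rl3 rather than F2r. F2rl2 read 396 in the knockout and 318 in wild type, a log2 difference of 0.31, while a dim second probe set, at 31.2 in the knockout and 41.0 in wild type, was below the floor on both arrays. F2rl3, the main signalling receptor for thrombin on mouse platelets, was below the floor at 80.5 in the knockout and 29.9 in wild type. F2r, which endothelial and mesenchymal cells express, read 5165 in the knockout and 4129.8 in wild type, a difference of 0.32. Its other probe set read 3446 in the knockout and 2058 in wild type, a difference of 0.74. Both F2r probe sets were higher in the knockout, but they differ from each other by 0.42 on the log2 scale.

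Enzymes of platelet signalling lay in both directions. Alox12, the platelet 12-lipoxygenase, read 530.4 in the knockout and 354 in wild type, a log2 difference of 0.58, and its dimmer probe set read 116 in the knockout and 70.9, below the floor, in wild type. Tbxas1, thromboxane synthase, which macrophages also express, read 282 in the knockout and 243 in wild type, a difference of 0.22. Rasgrp2, the calcium-dependent exchange factor that activates the GTPase Rap1, was lower on 3 of its 4 probe sets. These read 664, 638 and 180.0 in the knockout, against 925, 686 and 206 in wild type, with differences of -0.48, -0.10 and -0.20. The remaining Rasgrp2 probe set was higher, at 428 in the knockout and 366 in wild type, a difference of 0.23, so the size and the direction for Rasgrp2 depend on the probe set.

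The regulators and the platelet tubulin lay in both directions, by small amounts. Zfpm1 read 4049 in the knockout and 3531 in wild type, a log2 difference of 0.20, and 996 in the knockout and 801 in wild type on its other probe set, a difference of 0.31. Gfi1b, a transcriptional repressor needed for both erythroid cells and megakaryocytes, was slightly lower at 2298 in the knockout and 2649 in wild type, a difference of -0.20. Tubb1, the beta tubulin of the platelet marginal band, read 1498 in the knockout and 1352 in wild type, a difference of 0.15. Erythroid precursors, which are plentiful in liver at this stage, also express Zfpm1 and Gfi1b. The erythroid marker list that holds both genes had a median of -0.11 over 22 measured genes, with 8 above 0 and 14 below it.

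Probe sets of the same gene give a view of how repeatable a difference is within these samples, although they share the RNA and are not replicates. Of 9 members with more than 1 measured probe set, 7 had the same direction on all of them (Alox12, F2r, Gp1bb, P2rx1, Plek, Thbs1 and Zfpm1). For Alox12, Gp1bb and P2rx1 the dimmer probe set was above the floor on the knockout array only. Its bound could therefore only be positive, and it adds no agreement. For F2r, Plek, Thbs1 and Zfpm1 all probe sets were above the floor on both arrays. The other 2 were Rab27b and Rasgrp2. Within a gene the probe sets spanned from 0.12 (Zfpm1) to 0.70 (Rasgrp2) on the log2 scale, with bounds taken at their value. Of the 49 probe sets, 36 were above the floor on both arrays, 4 on the knockout array only, 1 on the wild-type array only and 8 on neither. Of the 41 measured ones, 33 were above 0 and 8 below 0, and 0 reached 2-fold in either direction with bounds taken at their value. The 4 on the knockout array only could lie only above 0, and the 1 on the wild-type array only below it. Several probe sets can belong to the same gene, and no share over all probe sets is given here. These counts are therefore a description only.

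**Figure D3:**
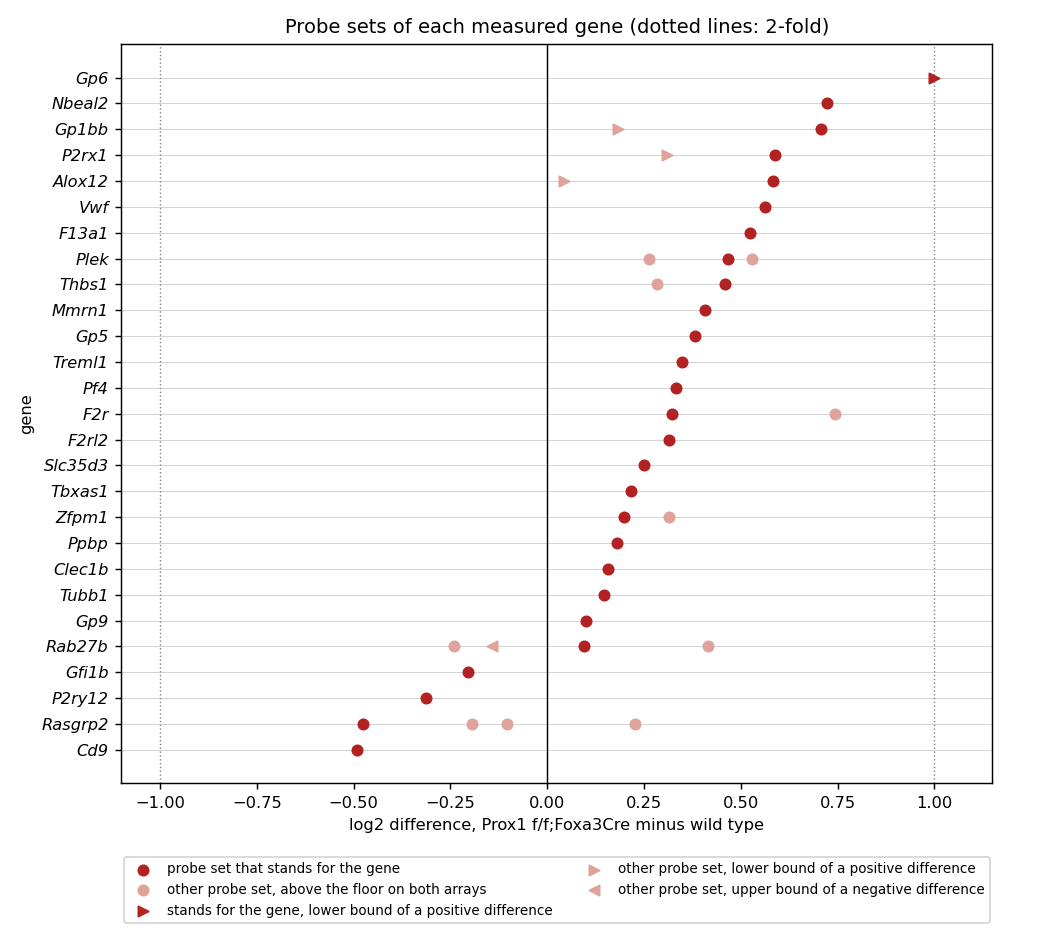
Log2 difference, knockout minus wild type, of every measured probe set of the 27 measured genes, ordered by the probe set that stands for the gene (dark) with the others in a pale shade; triangles are bounds, where 1 array was below the floor. Rab27b and Rasgrp2 have probe sets on both sides of 0, and the lower bound of Gp6 lies just short of the 2-fold line.

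The integrins of platelets, which were listed apart from the members, included genes past the 2-fold mark. Of these integrins, 6 of 7 were measured and 2 were at least 2-fold higher in the knockout, where 3.27% of all measured genes were. Itgb3, which is 1 of the 2, was counted as measured because of its knockout value alone. Of the 5 above the floor on both arrays, only Itga6 was at least 2-fold higher. Itgb3, the beta chain of the fibrinogen receptor, read 280.1 in the knockout and 110.4, below the floor, in wild type, which is at least 2.49-fold higher. Its other probe set read 113 in the knockout, at the floor, and 17.5 in wild type. Itga2b, the alpha chain that pairs with Itgb3 on platelets and marks the lineage, read 822 in the knockout and 699.6 in wild type, a log2 difference of only 0.23. Itga6, a laminin receptor chain found on platelets and on epithelial and endothelial cells, was 2.27-fold higher in the knockout. Itgav had a difference of 0.49.

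Transcription factors of the lineage were close to level. Of 20 measured, 0 were 2-fold apart, 15 were above 0 and 5 below 0, and the median log2 difference was 0.09 (0.03 over all measured genes). Of all measured genes, 3.27% were at least 2-fold higher and 2.13% lower. Zbtb16 was above the floor on the knockout array only, so it could lie only above 0. Of the 19 on both arrays, 14 were above 0, where 52.1% of all genes on both arrays were. Gata1 read 3435 in the knockout and 4217 in wild type, a difference of -0.30, and Nfe2, which drives platelet release, read 7452 in the knockout and 7106 in wild type, a difference of 0.07. Fli1, the ETS factor of the lineage, read 543 in the knockout and 505 in wild type, a difference of 0.10. Runx1 read 224 in the knockout and 218 in wild type, a difference of 0.04, and its other measured probe sets ran from -0.35 to 0.56. The largest differences were those of Mef2c (0.93), Srf (0.84), Cbfb (0.73) and Etv6 (0.45), which many other cells express.

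In the thrombopoietin pathway, which drives megakaryocyte growth, 8 genes were measured with a median of 0.21 and 0 were 2-fold apart. The hormone gene Thpo had no probe set of its own and was not analysed here. The farthest were the chemokine receptor Cxcr4 (0.83), Stat5a (-0.45), the cytokine receptor chain Il6st (0.44) and the adaptor Sh2b3 (0.39). Of 25 measured platelet signalling genes, 20 were above 0, the median was 0.38, and 1 was at least 2-fold higher. Of the 23 above the floor on both arrays, 19 were above 0, where 52.1% of all genes on both arrays were. The gene past 2-fold was Tbxa2r, the thromboxane receptor, at 242 in the knockout and 107, below the floor, in wild type, a bound of 2.15-fold. Tbxa2r was counted as measured because of its knockout value alone. Plcg2 (0.97), Prkcq (0.87) and Syk (0.84) followed, and Fcer1g, the signalling chain that glycoprotein VI needs, had a difference of 0.82. Leukocytes express these genes as well.

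Markers of other cells moved alongside the members, and their part in the differences was not tested. Of all 11397 measured genes, 6134 were above 0, and their median was 0.03. The 22 endothelial markers were all measured, Flt1 and Tie1 on the knockout array only, with 20 above 0, with a median log2 difference of 0.37 and a summed signal of 11040.4 in the knockout and 9264 in wild type. Of 17 macrophage markers, 14 were measured on both arrays and 3 (Cd163, Siglec1 and Vsig4) on neither, with 11 above 0, with a median of 0.37 and a summed signal of 21232 in the knockout and 16565 in wild type. Of 22 granulocyte and mast cell markers, 16 were measured on both arrays, and the mast cell genes Cma1, Fcer1a, Mcpt4, Ms4a2, Tpsab1 and Tpsb2 on neither. All 16 were above 0, with a median of 0.98 and a summed signal of 78134 in the knockout and 37644 in wild type. A sum is weighted toward the brightest probe sets of its list and is not an amount of cells. Here the brightest were S100a8 (24664 in the knockout, 13628 in wild type) and S100a9 (16234 in the knockout, 6118 in wild type). Of 17 mesenchymal markers, 16 were measured on both arrays and 1 on the knockout array only, and 16 were above 0, with a median of 1.31 and a summed signal of 35929 in the knockout and 17034 in wild type. The members' median of 0.32 was thus close to those of endothelial and macrophage markers and below those of granulocyte and mesenchymal markers. The 9 measured housekeeping genes had a median of 0.15, near the 0.18 of the 9 members with a mean signal above 1000. Vwf, Thbs1, Selp, F2r and Mmrn1 are also endothelial genes, and F13a1, Plek and Tbxas1 also macrophage genes.

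Liver identity was present on both arrays, since 12 of the 13 hepatoblast and hepatocyte markers with a probe set were above the floor on both. Their median was -0.72, with 5 at least 2-fold lower in the knockout, led by Ahsg, which encodes the plasma protein fetuin-A (788 in the knockout and 10437 in wild type). The summed signal of those 12 was 166321 in the knockout and 221300 in wild type, and that of the 22 measured erythroid markers 215424 in the knockout and 238765 in wild type. Both sums are weighted toward the brightest probe sets and are not amounts of cells. Prox1 read 222 in the knockout and 340.3 in wild type on its brightest probe set, and 112 and 66.7 in the knockout, against 206 and 175 in wild type, on the others. The sources used here do not place its probe sets inside or outside the deleted part. The arrays also differed in sex-linked genes: Xist read 366 in the knockout and 11467 in wild type, and the Y-linked Eif2s3y 1972 in the knockout and 0.87 in wild type. Genotype and embryo sex therefore cannot be told apart for any member.

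**Figure D4:**
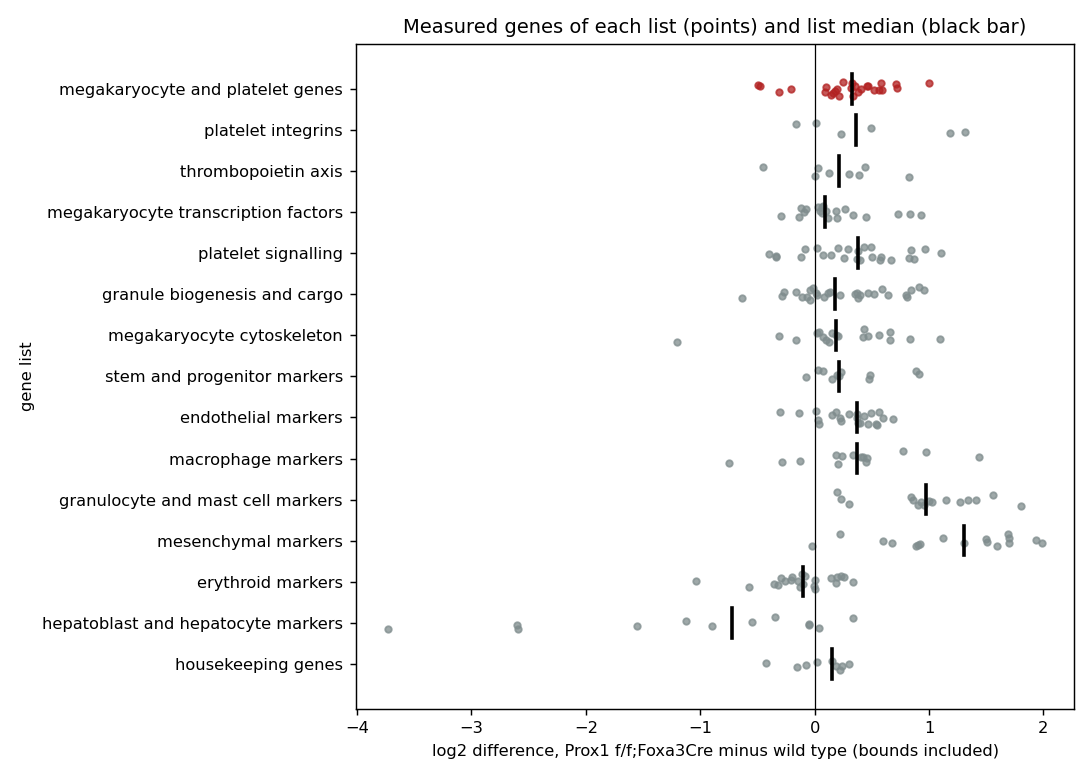
Log2 difference, knockout minus wild type, of the measured genes of each list (points, bounds included) with the list's median as a black bar; the megakaryocyte and platelet genes are in red. Their median of 0.32 lies near the endothelial and macrophage medians (0.37 each), below the granulocyte (0.98) and mesenchymal (1.31) medians and above the erythroid one (-0.11).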

How the data were processed

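RNA of 2 fetal liver samples, 1 per genotype, was hybridized to 1 array each. Per the labels' protocols, biotinylated cRNA was made from 5 micrograms of Trizol-isolated total RNA. The authors deposited 1 intensity per probe set and array, computed with MAS5 per the submitters' processing notes. The MAS5 version, the target and any detection calls are not given in the sources used here or were not used here. The 2% trimmed mean was 500.0 on both arrays, so the values were taken as already scaled to 1 target. The median signal was 112.6 in the knockout and 101.1 in wild type.

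The 64 control probe sets were left out. Of the remaining 45037, the platform annotation gave 1 gene for 34945 and several for 932, and 9160 were not listed. Identifiers of 34741 were found in a RefSeq table of GRCm38.p6, which changed 0 symbols. Signals under the 50th percentile floor were raised to it, and differences were then counted at 2-fold and at 1.5-fold. With 1 array per genotype there is no test, and the number of arrays limits the precision. The median and counting step was tested on simulated arrays with known folds. Those folds were well past 2-fold, lay in genes of mid-range signal and had less noise than these arrays. The simulation therefore does not cover differences near 1.5-fold or 2-fold, small medians or dim genes.

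The members and all gene lists were chosen with earlier results of these data known. Named genes were all members, a few lineage genes whatever their values (Gata1, Fli1, Runx1, Nfe2, Thpo, Itga2b and Itgb3), Prox1, Foxa3, Xist, Eif2s3y and, of each other list, up to 4 measured genes with the largest absolute difference; Fcer1g was named in addition, after its value was seen. The alternatives were other floors, no floor, quantile normalization, lowess correction, centring, the median over probe sets, probe sets shared between genes, the 1.5-fold rule and a subset of members. The software was Python 3.11.15 with pandas 2.3.3 and numpy 2.4.6 for the tables, statsmodels 0.14.6 for lowess, scipy 1.17.1 for trimmed means and matplotlib 3.10.9 for plots.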

Additional observations from a re-analysis of the deposited data

How the results depend on the processing

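The count of members at least 2-fold higher in the knockout moved with the floor, the lowess correction and the size rule. It was 0 as reported, 1 (Gp6) with lowess correction, 1 (Gp6) for a floor set at the 30th percentile, 2 (Gp6 and F2rl3) with no floor and a pseudocount of 16, and 4 (Gp6, Nbeal2, Gp1bb and P2rx1) at 1.5-fold. It was 0 for a floor set at the 60th percentile, quantile normalization, centring on the median of all genes, the median over probe sets, and shared probe sets. Of all measured genes, 3.27% were 2-fold higher and 2.13% lower as reported (373 and 243 genes). The shares were 5.34% and 2.80% under the 30th percentile floor (789 and 414 genes), and 7.69% and 4.45% without a floor (1399 and 810 genes). With lowess correction they were 3.04% and 2.28%. At 1.5-fold, 9.87% of all measured genes were higher. The 2-fold counts of 1 and 2, out of 27 or 30 members, are near these shares. The count of members at least 2-fold lower was 0 in all of these settings.

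The members' median ran from 0.30 (centred) to 0.33 (floor at the 30th percentile) over these settings. It was 0.36 over the glycoprotein, regulator, tubulin and granule members, and 0.32 over members on both arrays, a setting chosen after seeing the data. Rab27b was the only measured member whose direction turned, with the median over its probe sets. Differences moved by more than the robust SD of 0.29 for Gp6 and Nbeal2 under the 60th percentile floor. That floor, 190.4, lies above the wild-type signals of both genes. The difference moved by more than that SD also for Rasgrp2 with the median over probe sets and for Thbs1 with shared probe sets. Both of these settings change which probe sets stand for the gene. Signal over background limits Selp, F2rl3 and P2ry1 most, and P2ry12, Slc35d3, Gp6 and Nbeal2 next. No paired analysis was possible because each genotype has 1 array.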

Other observations

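The other chemokine genes around Pf4 lay below the floor. Within 100 kb of Pf4 the RefSeq table of GRCm38.p6 lists Ppbp and 3 further protein-coding genes, all CXC chemokines. Cxcl5 read 28.0 in the knockout and 51.7 in wild type, Cxcl3 read 11.1 in the knockout and 11.5 in wild type, and Cxcl15 read 15.7 in the knockout and 6.18 in wild type. All of these were below the floor on both arrays, while Pf4 and Ppbp were above it on both.

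Genes of granule biogenesis and cargo lay in both directions. Of 28 measured, 19 were above 0 and 9 below 0 on the log2 scale, 0 were 2-fold apart, and the median was 0.18. Of the 27 above the floor on both arrays, 18 were above 0, where 52.1% of all genes on both arrays were. At 2-fold, 3.27% of all measured genes were higher and 2.13% lower. The farthest were the growth factor chain Pdgfa (0.95), the matrix protein Sparc (0.91), the nucleotide transporter Abcc4 (0.84) and Hps5 (0.80), a component of a complex that forms lysosome-related organelles. Of 19 measured cytoskeleton genes, all above the floor on both arrays, 16 were above 0 and the median was 0.19. Gsn, the actin-severing protein gelsolin, was 2.30-fold lower in the knockout at 3507, against 8058 in wild type. Flna, the actin crosslinker that anchors glycoprotein Ib, was 2.14-fold higher at 1383 in the knockout, against 646 in wild type. Myl9 (0.83) and Tpm1 (0.66) followed.

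Stem and progenitor markers had a median of 0.21 over 11 measured genes, 10 of them above 0, with Ptprc (0.91), Cd34 (0.89), Myct1 (0.48) and a bound for Procr (0.47) the farthest. Of the 9 above the floor on both arrays, 8 were above 0, where 52.1% of all genes on both arrays were. The 9 measured housekeeping genes had a median of 0.15, with 6 above 0 and 3 below, led by Tbp (-0.42), Rplp0 (0.30), Gusb (0.24) and Ywhaz (0.22). Foxa3 itself read 680.1 in the knockout and 868 in wild type, a difference of -0.35.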
